A study of Mus musculus with 4 samples.

Results

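The genes described here are 9 secreted regulators of bone morphogenetic protein (BMP) signalling, read in single cells of the adult mouse lung. They were chosen by symbol from the 31055 features of the deposited matrix: 6 ligands (Bmp2, Bmp3, Bmp4, Bmp5, Bmp6 and Bmp7) and 3 antagonists (Grem1, Fst and Chrdl1). All 9 were found, each on 1 row of the matrix. The rule itself used no measured value, but the members were chosen with earlier results of these data known. The question was which cell types and fibroblast subtypes carry transcripts of ligands and which carry those of antagonists.

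The study isolated lung cells negative for CD45 and CD31, the surface proteins of leukocytes and endothelium, from tamoxifen-dosed mice about 8 weeks old with 1 Gli1-CreERT2 allele and 1 Rosa26 mTmG allele. The mTmG reporter switches from a red to a green fluorescent protein in cells in which Cre has acted, and the Cre is driven by the locus of Gli1, a target gene of hedgehog signalling; both transcripts (TdTomato and Egfp) were counted with the mouse genes. All cells carried these alleles and the drug, so there was no untreated or wild-type group, and the labels name the strain once as B6D2F1/J and once as C57BL/6J. The labels list 4 samples with the same description, but the deposited matrix pools them with no map from cells to samples, so the data are 1 sample and no difference between cells could be tested against the spread between animals.

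BMPs are secreted dimers of the transforming growth factor-beta superfamily. They bind paired type I and type II serine/threonine kinase receptors, which phosphorylate Smad1, Smad5 and Smad9 and so switch on target genes such as those of the Id family. Extracellular antagonists bind the ligands and keep them from the receptors: gremlin 1 (Grem1) and chordin-like 1 (Chrdl1) bind BMPs, while follistatin (Fst) binds activins most tightly and some BMPs more weakly. In the lung, BMP4 has roles in branching during development and in the behaviour of alveolar and airway progenitors in adults, and the mesenchyme next to the epithelium is a known source of both ligands and antagonists.

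The matrix held 11118 barcodes, the number of cells the study states, and 8933 cells remained after the filters, with 76127432 unique molecular identifiers (UMIs, each standing for 1 captured transcript), a median of 7967 per cell and a range from 699 to 77372. The assay counts the 3′ ends of transcripts, so a count does not grow with transcript length. Levels are given as CPM, the UMIs of a gene per 1000000 UMIs of all genes, both summed over the cells of a class. Ranges in parentheses are 95% intervals; they cover counting error only, and cells were not used as replicates for p-values. Clusters were built without the 9 genes or their pathway and were named from marker genes: 2950 adventitial-like fibroblasts (markers such as Pi16 and Dcn), 1966 alveolar-like fibroblasts (Inmt, Npnt), 427 peribronchial or myofibroblast-like cells (Hhip), 179 smooth muscle-like cells, 208 mesothelial-like cells, 209 alveolar type 1-like (AT1-like) cells, 1654 alveolar type 2-like (AT2-like) cells, 73 club or secretory-like, 238 ciliated-like, 91 leukocyte-like and 66 endothelial-like cells. The Hhip cluster scored almost as high on smooth muscle markers, and the smooth muscle-like cluster almost as high on pericyte markers. Of 4 clusters left unnamed, 1 of 659 cells matters here: it scored about equally on the alveolar and adventitial lists and was led by Lamc3, Notum, Adh7 and Ltbp2, and it is called the Notum cluster below.

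Ligand transcripts were found in all 11 named classes, while antagonist transcripts lay mostly in mesenchyme. The 6 ligands together had 262 CPM (256 to 268) in adventitial-like fibroblasts and 739 CPM (723 to 755) in alveolar-like fibroblasts, with 637 CPM in the Notum cluster and 557 CPM in myofibroblast-like cells. The 3 antagonists together had 125 CPM (120 to 129) in adventitial-like fibroblasts and 44.7 CPM in alveolar-like fibroblasts, with 100 CPM in mesothelial-like and 30.5 CPM in myofibroblast-like cells. The adventitial-like fibroblasts thus held the most antagonist and the alveolar-like fibroblasts the most ligand of the named classes. Both leads depend on which genes are summed. Fst alone gave 86.8 CPM of the adventitial-like antagonist sum. Chrdl1 was higher in mesothelial-like cells (90.1 CPM) than in adventitial-like fibroblasts (37.8 CPM). Bmp3 gave 278 CPM of the alveolar-like and 59.3 CPM of the myofibroblast-like ligand sum. AT2-like cells had 252 CPM of ligand and 0.312 CPM of antagonist, close to the adventitial-like fibroblasts in ligand and without their antagonist.

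**Figure D1:**
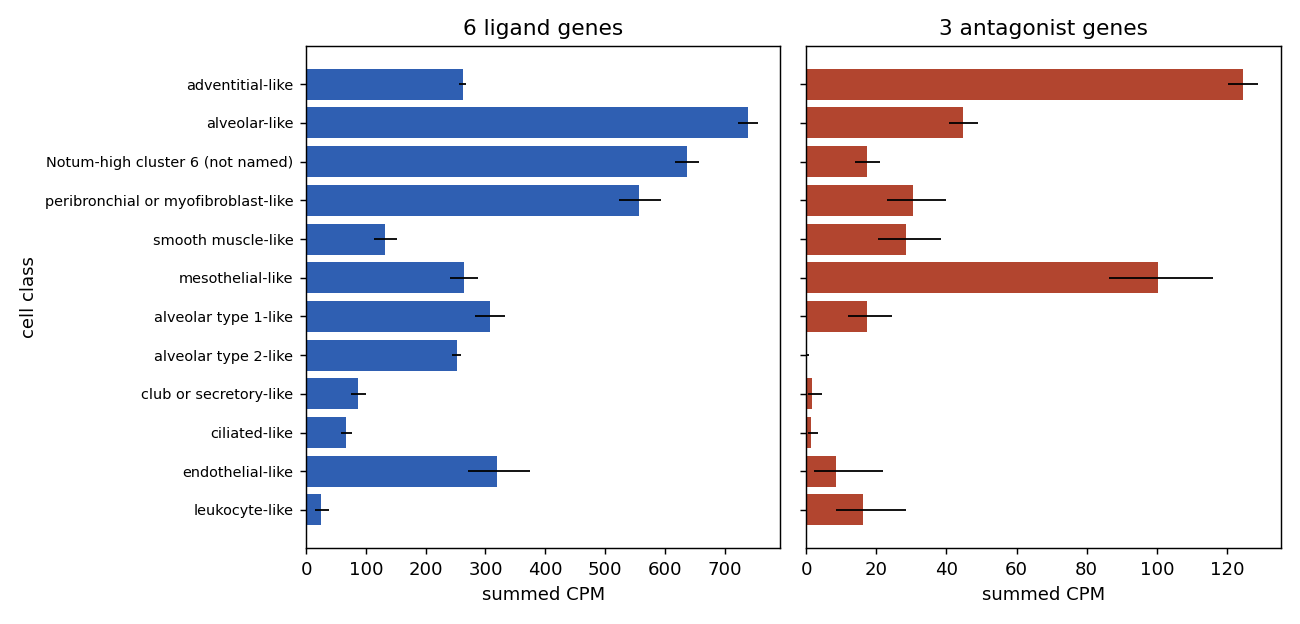
Summed CPM of the 6 ligands (left) and the 3 antagonists (right) in each cell class; bars are summed over the cells of a class, with 95% Poisson intervals. Ligand reached 739 CPM in alveolar-like fibroblasts, while antagonist reached 125 CPM in adventitial-like fibroblasts and 0.312 CPM in AT2-like cells.

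The ligand that led also differed by class. Bmp4 made up 48.5% of the ligand UMIs of adventitial-like fibroblasts and 63.6% of those of AT2-like cells. Bmp3 made up 37.6% in alveolar-like fibroblasts, Bmp5 65.5% in myofibroblast-like cells and Bmp6 50.7% in endothelial-like cells. Each of these classes therefore had its own mix of ligands, as the map of the 9 genes over the classes shows.

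**Figure D2:**
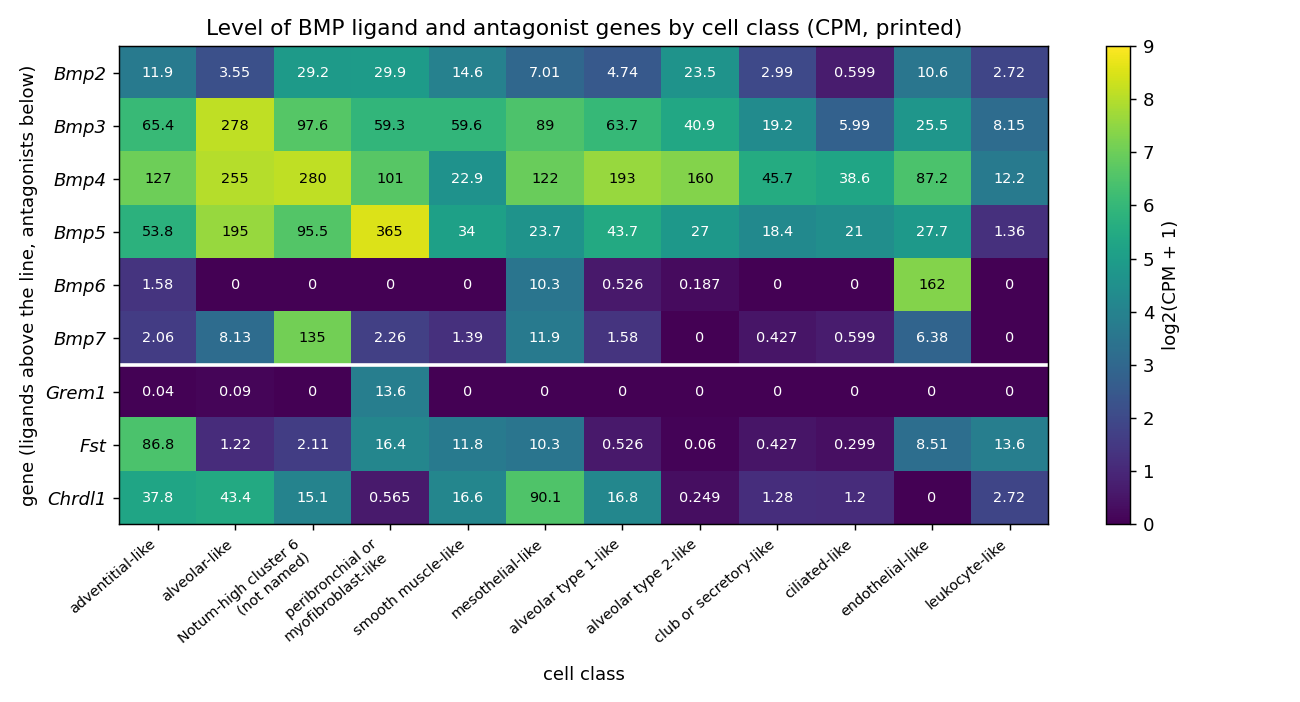
Level of each of the 9 genes (down the side, ligands above the white line) in 11 named cell classes and the Notum cluster (along the bottom); the number in each field is CPM and the colour is log2(CPM + 1). Bmp4 is spread over most classes, whereas Bmp7 stands at 135 CPM in the Notum cluster, Bmp6 at 162 CPM in endothelial-like cells and Grem1 at 13.6 CPM in myofibroblast-like cells.

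Adventitial-like and alveolar-like fibroblasts differed in opposite directions for most ligands and for Fst. Of the 9 genes, 8 had at least 30 UMIs over both classes; the ratio of adventitial-like over alveolar-like was 2 or more for 3 of them (Bmp2, Bmp6 and Fst), and for 10.1% of 12547 genes, and 0.5 or less for 4 (Bmp3, Bmp4, Bmp5 and Bmp7), and for 9.82% of genes. The median of the 8 ratios was 0.684. The median ratio of all genes lay at -0.12 on the log2 scale in this comparison, at 0.20 for mesenchyme over epithelium and at 0.47 for AT1-like over AT2-like cells; ratios are given without correction for it. The adventitial-like cells were also read more deeply, with a median of 8942 UMIs against 5063 in alveolar-like cells.

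**Figure D3:**
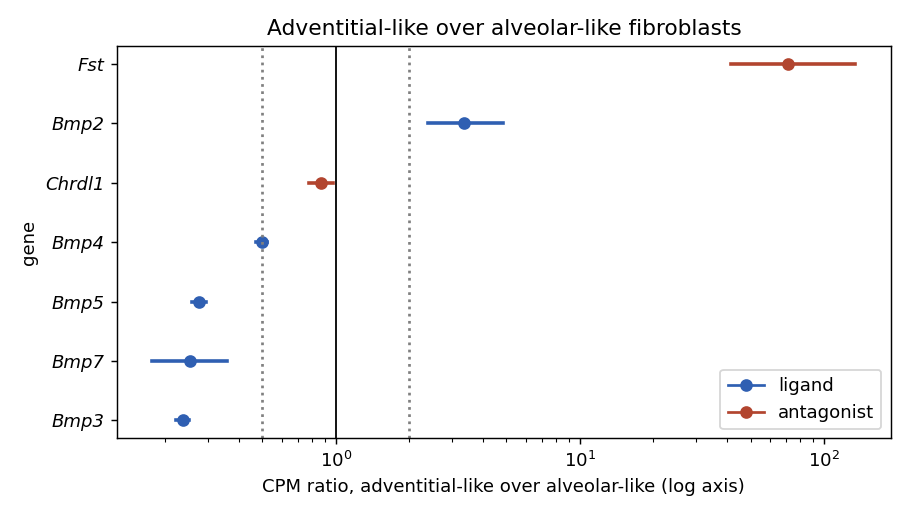
Ratio of CPM, adventitial-like over alveolar-like fibroblasts, for 7 of the genes (points, log axis) with 95% counting intervals; ligands are blue, antagonists red, and dotted lines mark 0.5 and 2. Fst stands at 71.4, Bmp2 at 3.36 and Chrdl1 at 0.871, while Bmp3, Bmp4, Bmp5 and Bmp7 lie between 0.236 and 0.498.

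Bmp3 (ENSMUSG00000029335, mm10 chr5:98854415-98884396, plus strand) encodes an atypical member of the family that is known to oppose the bone-forming BMPs. It had 65.4 CPM (62.4 to 68.5) in adventitial-like fibroblasts, against 278 CPM (268 to 288) in alveolar-like fibroblasts, a ratio of 0.236 (0.222 to 0.25). Alveolar-like fibroblasts held 44.3% of all Bmp3 UMIs in the data. Outside these classes Bmp3 stood at 97.6 CPM in the Notum cluster, 89.0 CPM in mesothelial-like cells and between 59.3 and 63.7 CPM in AT1-like, smooth muscle-like and myofibroblast-like cells, an order in which the last 3 did not differ beyond counting error.

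The adventitial-like level of Bmp3 came mostly from 1 of its 5 clusters. That cluster, cluster 3, had 213 CPM of Bmp3 (202 to 224), while the other 4 lay between 9.98 and 24.9 CPM. Without cluster 3, a setting added after the data were seen, the adventitial-like over alveolar-like ratio of Bmp3 was 0.0496 and that of Bmp5 0.165. Cluster 3 was adventitial-like by its marker scores, with 6334 CPM of Dcn, but those scores were the closest to the alveolar list among the 5 clusters, with Inmt at 3914 CPM there and at 1252 to 1769 CPM in the other 4. In a finer clustering its 506 cells with less Dcn (4164 CPM) had 266 CPM of Bmp3 and 5.83 CPM of Fst, and its 266 cells with more Dcn (9708 CPM) had 128 CPM of Bmp3 and 36.1 CPM of Fst.

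Fst (ENSMUSG00000021765, mm10 chr13:114452290-114458951, minus strand) was the member with the widest gap between both fibroblast classes. It had 86.8 CPM (83.3 to 90.3; 2364 UMIs) in adventitial-like fibroblasts, against 1.22 CPM (0.647 to 2.08; 13 UMIs) in alveolar-like fibroblasts, a ratio of 71.4 (41.7 to 134). Adventitial-like fibroblasts held 91.8% of all Fst UMIs. Within them Fst had 172 CPM in cluster 10, 146 CPM in cluster 5, 89.8 CPM in cluster 2, 43.9 CPM in cluster 9 and 17.2 CPM in cluster 3. The cluster lowest in Fst was thus the one highest in Bmp3, while the other 4 did not run in reverse order. An unnamed cluster of 97 cells, adventitial in type but led by cardiac muscle genes, had 93.7 CPM of Fst (73.7 to 118), which did not differ from the adventitial-like level beyond counting error.

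Across the 12 mesenchymal clusters, log2(CPM + 1) of Bmp3 and of Fst had a Pearson correlation of -0.881, given as a description since all clusters come from the same pooled library. Bmp3 and Bmp5 had 0.668, and Bmp4 and Bmp7 0.585. Other pairs were negative too, such as Bmp5 and Fst at -0.634. Grem1 and Chrdl1 had -0.869, although Grem1 had only 26 UMIs. Bmp3 and Fst were also read in single adventitial-like cells, each thinned to 2000 UMIs (11 shallower cells left out). Of 385 such cells with a Fst UMI, 2.86% (1.43 to 5.05) had a Bmp3 UMI, and of 2554 without, 12.5% (11.2 to 13.8) did. Without thinning the shares were 11.1% and 33.6%, at median depths of 9525 and 8692 UMIs. For scale, a Bmp3 UMI was seen in 0 of 80 thinned leukocyte-like cells, which allows a share of up to 3.75% by a floor of 3 cells, and in 0.844% of thinned ciliated-like cells, whose median depth was 11238 UMIs.

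Within single clusters the intervals of both shares overlapped in all 5 adventitial-like clusters. Cells with both UMIs were few, 7 in cluster 3 and at most 2 in any other. These counts therefore cannot decide whether the shares differed within a cluster. In cluster 3, 29.2% of the cells with a Fst UMI (7 of 24) and 34.8% of those without had a Bmp3 UMI, and in cluster 9 the shares were 7.69% and 6.23%. In clusters 2, 5 and 10 the shares were 0.752%, 0.709% and 0 with Fst and 1.35%, 3.17% and 3.81% without. A ligand and an antagonist UMI of any of the 9 genes were seen together in 6.23% of thinned adventitial-like cells, where the product of both shares was 7.27%, and in 5.55% of alveolar-like cells, where it was 5.28%.

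**Figure D4:**
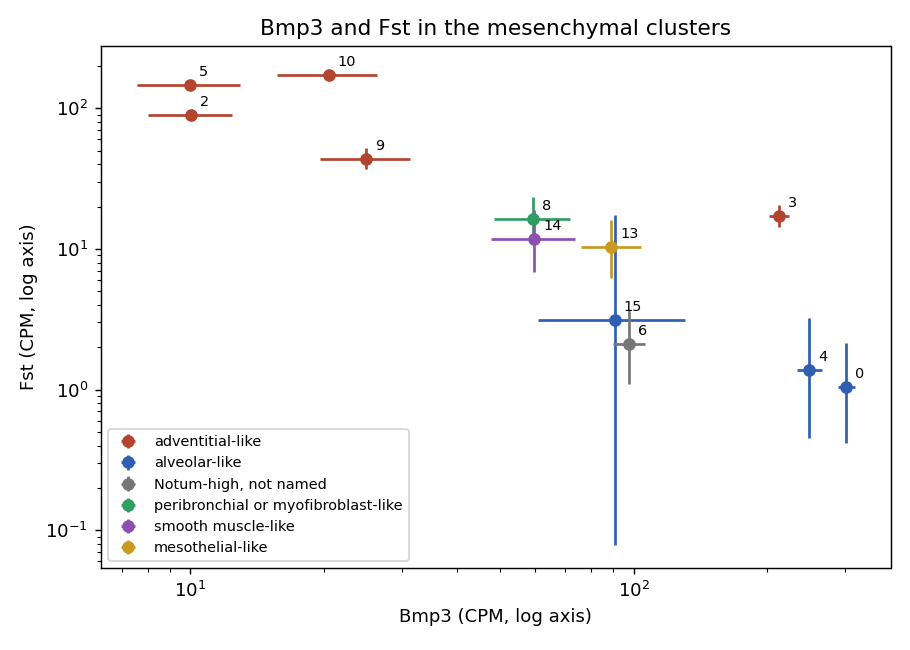
Fst (vertical) against Bmp3 (horizontal), both in CPM on log axes, in the 12 mesenchymal clusters; bars are 95% Poisson intervals. Alveolar-like clusters lie at high Bmp3 and low Fst, clusters 10 and 5 at high Fst and low Bmp3, and adventitial-like cluster 3 at 213 CPM of Bmp3 and 17.2 CPM of Fst, near the alveolar-like side.

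Bmp4 (ENSMUSG00000021835, mm10 chr14:46383520-46390669, minus strand), the ligand studied most in lung development, had the broadest spread. It had 127 CPM (123 to 131) in adventitial-like fibroblasts, against 255 CPM (245 to 265) in alveolar-like fibroblasts, a ratio of 0.498 (0.473 to 0.524) that lies on the 0.5 line and was past it in 7 of 14 alternative settings. The highest level was 280 CPM (266 to 294) in the Notum cluster, 1.10 times that of alveolar-like fibroblasts (1.03 to 1.17). AT1-like cells followed with 193 CPM (174 to 214) and AT2-like cells with 160 CPM (154 to 167), both above the adventitial-like level. At the low end stood smooth muscle-like cells with 22.9 CPM (15.7 to 32.1) and leukocyte-like cells with 12.2 CPM. Among alveolar-like clusters Bmp4 was highest in cluster 4, at 324 CPM, where Npnt was also highest (2808 CPM), whereas Bmp3 was higher in cluster 0 (302 CPM) than in cluster 4 (249 CPM).

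Promoter sequences were looked up in RefSeq for the genes whose levels turn on a single class or spread over many; 4 of the 9 genes matched (Bmp4, Bmp5, Bmp6 and Grem1). The 3 printed here set the broadly detected Bmp4 beside Bmp5 and Grem1, which were highest in different parts of the same Hhip cluster. Each is the 250 bases before the RefSeq start, 5′ to 3′ on the gene's strand in build GRCm38.p6 (the assembly of mm10), and capitals mark the GC box GGGCGG on either strand.
Bmp4 promoter (chr14:46390670-46390919, minus strand): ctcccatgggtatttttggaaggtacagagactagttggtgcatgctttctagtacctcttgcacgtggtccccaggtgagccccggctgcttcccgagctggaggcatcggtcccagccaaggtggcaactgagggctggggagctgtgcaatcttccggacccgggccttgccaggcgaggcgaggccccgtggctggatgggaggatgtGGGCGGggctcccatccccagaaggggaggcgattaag
Bmp5 promoter (chr9:75775115-75775364, plus strand): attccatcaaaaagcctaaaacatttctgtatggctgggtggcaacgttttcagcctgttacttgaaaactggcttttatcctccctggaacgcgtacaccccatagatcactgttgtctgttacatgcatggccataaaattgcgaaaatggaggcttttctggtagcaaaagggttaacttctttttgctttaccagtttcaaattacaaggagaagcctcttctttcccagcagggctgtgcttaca
Grem1 promoter (chr2:113758649-113758898, minus strand): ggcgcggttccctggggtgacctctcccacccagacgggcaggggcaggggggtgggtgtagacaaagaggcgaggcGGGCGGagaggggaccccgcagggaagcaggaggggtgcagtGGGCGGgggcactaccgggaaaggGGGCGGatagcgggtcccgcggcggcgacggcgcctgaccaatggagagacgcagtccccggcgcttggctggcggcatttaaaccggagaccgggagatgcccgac
The Bmp5 window had 42.8% G and C, 4 CpG dinucleotides and no GC box. The Grem1 window had 72.0% G and C, 24 CpG dinucleotides and 3 GC boxes, and the Bmp4 window 63.2%, 11 and 1. Of 32851 windows of the same length, 32.7% held a GC box, and the medians were 52.4% G and C and 6 CpG dinucleotides. The TATA motif TATAAA (12.4% of windows), the GLI motif TGGGTGGTC (0.225%) and the E-box CAGCTG (13%), searched on both strands, were in none of the 4 matched windows, so none overlapped a GC box; the letters of these windows say nothing on whether a factor binds. Bmp5 and Grem1, both highest in the same cluster at the main resolution, thus had windows of unlike base composition.

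Bmp5 (ENSMUSG00000032179, mm10 chr9:75775364-75900310, plus strand), a ligand of the group that also holds Bmp6 and Bmp7, was the main ligand of the Hhip-positive myofibroblast-like cells. It had 365 CPM (337 to 394) there, against 89.2 CPM (86.5 to 91.9) in the other mesenchymal cells, a ratio of 4.09 (3.76 to 4.45). Alveolar-like fibroblasts followed with 195 CPM (186 to 203), and the myofibroblast-like level was 1.87 times theirs (1.71 to 2.05). In adventitial-like fibroblasts it had 53.8 CPM (51.0 to 56.6), against that alveolar-like level a ratio of 0.276 (0.258 to 0.295). As with Bmp3, cluster 3 was the highest adventitial-like cluster, with 116 CPM against 23.2 to 56.5 CPM in the other 4.

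Against the other mesenchymal cells, myofibroblast-like cells had 2 of the 8 measured members at least 2-fold higher (Bmp2 and Bmp5; 7.77% of 13198 genes were) and 3 at 0.5-fold or less (Bmp7, Fst and Chrdl1; 12.7% of genes). Bmp2 (ENSMUSG00000027358, mm10 chr2:133552159-133562885, plus strand), a strong inducer of bone and a close relative of Bmp4, had 29.9 CPM (22.4 to 39.2) in myofibroblast-like cells and 12 CPM in the others, a ratio of 2.50 (1.85 to 3.31). Fst had 16.4 CPM in myofibroblast-like cells and 51.7 CPM in the others, a ratio of 0.317 (0.212 to 0.456). Chrdl1 was seen once in the myofibroblast-like cells, at 0.565 CPM, and had 37.7 CPM in the others. Bmp3 was at 59.3 and 118 CPM in the same order, a ratio of 0.501 (0.409 to 0.607) that lies on the 0.5 line. The other mesenchymal cells included the Notum cluster, where Bmp7 had 135 CPM. In myofibroblast-like cells Bmp7 had 2.26 CPM, 1.10 times the adventitial-like level (0.290 to 2.98).

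Grem1 (ENSMUSG00000074934, mm10 chr2:113746164-113758646, minus strand) was rare, with 26 UMIs in 9 cells. Of these UMIs 24 (92.3%) lay in 7 myofibroblast-like cells, which gives 13.6 CPM (8.69 to 20.2), and 8 of them in 1 cell. The other mesenchymal cells held 2 UMIs, 1 in an alveolar-like and 1 in an adventitial-like cell, so that the ratio was 318 (79.0 to 2777). With fewer than 30 UMIs the gene did not enter the counts of members. Myofibroblast-like cells were its highest class in 7 of 10 alternative settings. At resolution 2 smooth muscle-like cells were (10.2 CPM), a class that then took in a part of the Hhip cluster described below. The 7 myofibroblast-like cells with Grem1 had 24188 CPM of Acta2 (smooth muscle actin) and the remaining cells of that cluster 3508 CPM, while Hhip was at 1120 and 4623 CPM and Bmp5 at 126 and 373 CPM.

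A finer clustering divided the Hhip cluster into 377 cells with 1868 CPM of Acta2 and 50 cells with 16238 CPM of Acta2 and 3309 CPM of Myh11, the smooth muscle myosin. The 50 Acta2-high cells were counted as smooth muscle-like in that clustering, not as myofibroblast-like. Bmp5 and Bmp3 divided with them. The Acta2-low cells had 427 CPM of Bmp5 (395 to 462) and 30.2 CPM of Bmp3. The Acta2-high cells had 35.5 CPM of Bmp5 (17 to 65.3) and 213 CPM of Bmp3 (163 to 274). Bmp2 had 34.3 CPM (25.5 to 45.0) in the Acta2-low cells. In the Acta2-high cells Bmp2 had 7.10 CPM (0.860 to 25.6), from 2 UMIs in 1 cell, so the intervals of Bmp2 overlapped. Bmp4 was at 100 CPM in the Acta2-low and 103 CPM in the Acta2-high cells. Grem1 was at 6.05 CPM (9 UMIs in 2 cells) in the Acta2-low and 53.3 CPM (29.8 to 87.8; 15 UMIs in 5 cells) in the Acta2-high cells. The high Bmp5 of this class was therefore a feature of its Acta2-low cells, while the level of Bmp3 was higher in the Acta2-high ones. Bmp3 was not confined to them, with 45 UMIs in 40 Acta2-low cells and 60 UMIs in 21 Acta2-high cells.

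**Figure D5:**
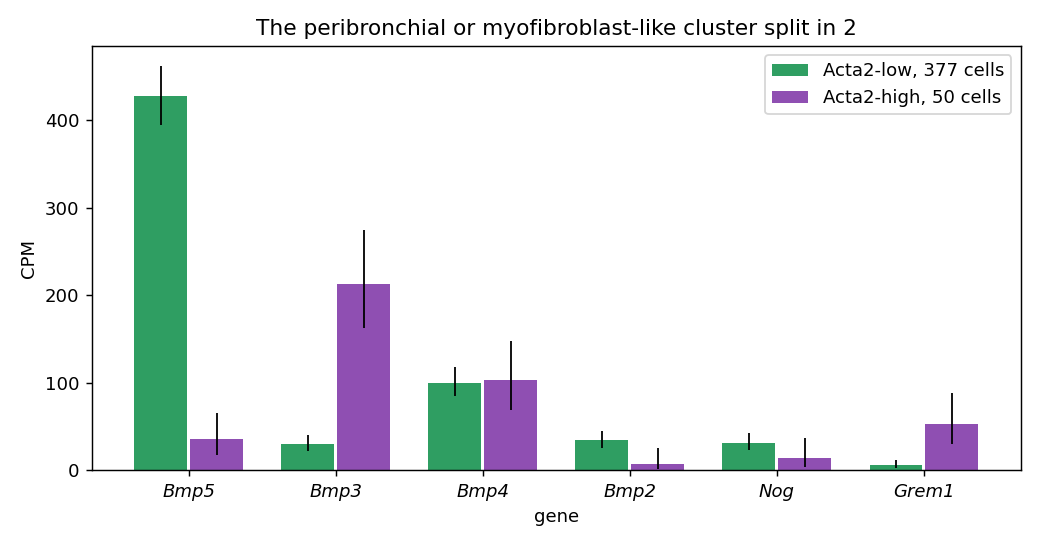
CPM of 4 ligands and 2 antagonists in the Acta2-low (377 cells) and Acta2-high (50 cells) parts of the Hhip cluster; bars carry 95% Poisson intervals. Bmp5 stands at 427 and 35.5 CPM, Bmp3 at 30.2 and 213 CPM, and Nog at 31.6 and 14.2 CPM in Acta2-low and Acta2-high cells.

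The antagonist noggin (Nog), from the list of other pathway genes, was also highest in myofibroblast-like cells. It reached 28.8 CPM there, with no other named class above 1 CPM. Nog had 31.6 CPM (23.2 to 42.0) in the Acta2-low cells. In the Acta2-high cells it had 14.2 CPM (3.87 to 36.4) from 4 UMIs, so the intervals overlapped. The 7 cells with Grem1 were too few to compare it, with no UMI and an upper limit of 66.6 CPM.

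Smooth muscle-like cells had low levels of most members. Against the other mesenchymal cells 0 members were at least 2-fold higher (9.8% of genes were) and 5 stood at 0.5-fold or less (Bmp4, Bmp5, Bmp7, Fst and Chrdl1; 15.1% of genes). Bmp4 had 22.9 CPM in smooth muscle-like cells and 173 CPM in the others, a ratio of 0.132 (0.0909 to 0.186), and Bmp5 34.0 and 101 CPM, a ratio of 0.336 (0.248 to 0.444). A finer clustering gave 122 cells rich in Myh11 (3516 CPM) with 13.4 CPM of Bmp4 and 2.52 CPM of Fst. The remaining 57 cells, with less Myh11 (841 CPM), were named pericyte-like in that clustering. They had 67.5 CPM of Bmp4, 139 CPM of Bmp5, 55.6 CPM of Fst and 63.5 CPM of Chrdl1. The ratio of Fst, 0.228, was 0.828 with doublets kept and 0.0782 at its lowest. The other mesenchymal cells again included the Notum cluster, and Bmp7 had 1.39 CPM in smooth muscle-like and 2.06 CPM in adventitial-like cells.

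Bmp7 (ENSMUSG00000008999, mm10 chr2:172868012-172940321, minus strand), a ligand of kidney and eye development, was largely a transcript of the Notum cluster. There it had 135 CPM (125 to 144), which was 765 of its 968 UMIs (79.0%) and 8.89 times (4.94 to 17.9) the next class, an unnamed cluster of 41 proliferating cells at 15.1 CPM. Adventitial-like fibroblasts had 2.06 CPM, alveolar-like fibroblasts 8.13 CPM and mesothelial-like cells 11.9 CPM. AT2-like cells had no Bmp7 UMI, and a floor of 3 UMIs over the class would be 0.187 CPM. A finer clustering of the Notum cluster gave 303 cells with 281 CPM of Notum, 177 CPM of Bmp7 and 47.6 CPM of Bmp2, and 353 cells with 53.9 CPM of Notum, 97.0 CPM of Bmp7 and 12.2 CPM of Bmp2. Bmp3 ran the other way in them, with 33.2 and 157 CPM in the same order.

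Since the Notum cluster carries most Bmp7, the class it is counted in sets the direction of Bmp7. The adventitial-like over alveolar-like ratio was 0.253 (0.177 to 0.358), with 2.06 CPM in adventitial-like and 8.13 CPM in alveolar-like fibroblasts, while the cluster stayed unnamed. It was 3.07 with the cluster counted as adventitial-like, a setting added after the data were seen, 3.02 at a coarser clustering and 4.23 with a looser cell filter. Bmp2 was affected in the same way: it had 11.9 CPM (10.7 to 13.3) in adventitial-like and 3.55 CPM (2.51 to 4.88) in alveolar-like fibroblasts, a ratio of 3.36 (2.39 to 4.83), which became 0.958 when the cluster was named by its best list, alveolar. In the Notum cluster itself Bmp2 had 29.2 CPM (24.9 to 34.0), which did not differ beyond counting error from the myofibroblast-like level.

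Chrdl1 (ENSMUSG00000031283, mm10 chrX:143285674-143394262, minus strand) had its highest level in mesothelial-like cells, although adventitial-like fibroblasts held 55.8% and alveolar-like fibroblasts 25.2% of its UMIs and mesothelial-like cells 9.06%. It had 90.1 CPM (77.0 to 105) in mesothelial-like cells and 34.2 CPM (32.6 to 36.0) in the other mesenchymal cells, a ratio of 2.63 (2.23 to 3.09), and it was 2.08 times the alveolar-like level (1.73 to 2.48). The 2 large fibroblast classes were close, with 37.8 CPM (35.5 to 40.1) in adventitial-like and 43.4 CPM (39.5 to 47.5) in alveolar-like fibroblasts, a ratio of 0.871 (0.780 to 0.974). Single clusters within them were further apart than the classes: 58.4 CPM in cluster 3 and 20.9 CPM in cluster 9 of the adventitial-like, 53.8 CPM in cluster 0 and 25.5 CPM in cluster 4 of the alveolar-like fibroblasts. Unlike Fst, Chrdl1 was high together with Bmp3 in cluster 3. Of thinned adventitial-like cells with a Chrdl1 UMI, 21.7% (16.2 to 28.0) had a Bmp3 UMI, and of those without, 10.5% did. These shares pool all adventitial-like clusters and were not read within single ones. They therefore cannot decide whether the shares differed within a cluster.

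Against the other mesenchymal cells, mesothelial-like cells had 2 members at least 2-fold higher (Bmp6 and Chrdl1; 15.2% of genes were) and 2 at 0.5-fold or less (Bmp5 and Fst; 14.8% of genes). Bmp6 (ENSMUSG00000039004, mm10 chr13:38345107-38500302, plus strand), known for its control of iron balance through hepcidin in the liver, had 10.3 CPM (6.17 to 16; 19 UMIs) in mesothelial-like cells and 0.918 CPM in the others, a ratio of 11.2 (6.15 to 19.6). Bmp5 had 23.7 CPM in mesothelial-like cells and 102 CPM in the others, and Fst 10.3 and 52.0 CPM. In a finer clustering 181 mesothelial-like cells had 98.8 CPM of Chrdl1 and 4.85 CPM of Fst, and 27 cells with 19296 CPM of the fibroblast gene Dcn had 19.7 CPM of Chrdl1 and 54.1 CPM of Fst.

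Among fibroblasts Bmp6 was nearly absent: 43 UMIs in adventitial-like cells (1.58 CPM), 34 of them in cluster 10, and none in alveolar-like cells, so that the adventitial-like level was at least 5.63-fold higher when 3 UMIs over the alveolar-like class are taken as its floor. Its highest level lay in the 66 endothelial-like cells, with 162 CPM (127 to 202) and 76 of its 143 UMIs (53.1%), which was 15.8 times the mesothelial-like level (9.44 to 27.6). That cluster, left by a sort against CD31, had 721 CPM of Pecam1 (the gene of CD31), 3346 CPM of the haemoglobin gene Hbb-bs and 33914 CPM of the AT2 gene Sftpc; the part of other cells' RNA in its Bmp6 was not tested.

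The epithelium carried ligand with little antagonist. For mesenchymal over epithelial cells, 6 of the 8 measured members were at least 2-fold higher (Bmp3, Bmp5, Bmp6, Bmp7, Fst and Chrdl1; 25.6% of 14511 genes were) and 0 stood at 0.5-fold or less (19.3% of genes). Fst had 50.4 CPM in mesenchymal and 0.169 CPM (4 UMIs) in epithelial cells, a ratio of 298 (116 to 1093), and Chrdl1 36.4 and 1.82 CPM, a ratio of 19.98 (14.8 to 27.7). With doublets kept these ratios were 14 and 7.67, and that of Bmp7 was 8.80 against 75.7 (34.6 to 207) without doublets. Bmp4 was close in both compartments, with 169 CPM in mesenchymal and 134 CPM in epithelial cells, a ratio of 1.26 (1.20 to 1.31), and Bmp2 had 12.6 and 16.7 CPM, a ratio of 0.757 (0.666 to 0.861).

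AT2-like cells were the largest single holder of Bmp2, with 377 UMIs (35.6%) at 23.5 CPM (21.2 to 26.0), a level that did not differ beyond counting error from that of myofibroblast-like cells. AT1-like over AT2-like cells gave 1 of 5 measured members at least 2-fold higher (Chrdl1; 27.5% of 11259 genes were) and 1 at 0.5-fold or less (Bmp2; 11.9% of genes). Bmp2 had 4.74 CPM (9 UMIs) in AT1-like and 23.5 CPM in AT2-like cells, a ratio of 0.202 (0.0915 to 0.387). Chrdl1 had 16.8 CPM (32 UMIs) in AT1-like and 0.249 CPM (4 UMIs) in AT2-like cells, a ratio of 67.6 (24.0 to 263) that was 4.77 with doublets kept. The AT1-like cluster also held fibroblast RNA, with 1368 CPM of Inmt. Its 137 cells with the most Ager (18969 CPM) had 961 CPM of Inmt, 46.2 CPM of Bmp3 and 15.1 CPM of Chrdl1, and its 52 cells with 5905 CPM of Ager had 4746 CPM of Inmt, 230 CPM of Bmp3 and 45.1 CPM of Chrdl1. Bmp4 had 204 CPM in the Ager-rich and 158 CPM in the Inmt-rich cells. Bmp2 had no UMI in either, with upper limits of 2.94 CPM in the Ager-rich and 16.6 CPM in the Inmt-rich cells. All 9 Bmp2 UMIs of the AT1-like cluster lay in its remaining 20 cells, at 21.2 CPM (9.71 to 40.3).

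AT2-like levels of the members were set beside those of the fibroblast marker genes in the same cells. For 17 fibroblast markers the AT2-like level was 0.284% (Dcn) to 543% (Dpp4) of the mesenchymal level, with a median of 2.02%; Dpp4 and Ces1d (235%) stood above the mesenchymal level itself, and Ly6c1 (40.5%), Npnt (26.3%) and Limch1 (20.1%) stood well above the median, so the list does not hold only genes that AT2-like cells lack. For the members it was 186% for Bmp2, 95% for Bmp4, 35.2% (32.4 to 38.2) for Bmp3, 27.3% (24.7 to 30.1) for Bmp5 and 14.7% for Bmp6 (3 UMIs), against 0.686% for Chrdl1, 0.124% for Fst and 0 for Bmp7. Bmp3 and Bmp5 lay in the range of Ly6c1, Npnt and Limch1, and the part of free RNA in their AT2-like levels was not tested.

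The green reporter and Gli1, which drives its Cre, were set against the members within clusters. Mesenchymal cells with at least 1000 CPM of Egfp were matched on cluster and depth to cells with under 200 CPM, 1900 pairs in all; no member was at least 2-fold higher (0.328% of 12489 genes were) and none stood at 0.5-fold or less (0.44% of genes). Bmp7 had 13.6 CPM in reporter-high and 9.17 CPM in reporter-low cells, a ratio of 1.48 (1.18 to 1.86), and Fst 46.8 and 54.7 CPM, a ratio of 0.855 (0.770 to 0.949). The ratios of Bmp3, Bmp4 and Bmp5 were 1.07, 1.04 and 0.965. Adventitial-like cells with a Gli1 UMI, matched to cells without in 624 pairs, likewise gave 0 of 6 measured members past 2-fold in either direction (0.219% and 0.485% of 10938 genes). Fst had 81.5 CPM in cells with Gli1 and 86.6 CPM in cells without, a ratio of 0.942 (0.834 to 1.06), and Bmp2 10.5 and 13.6 CPM, a ratio of 0.775 (0.556 to 1.08).

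Single classes showed wider reporter ratios among 27 computed. In 168 matched pairs of the Hhip cluster Bmp3 had 83.1 CPM in reporter-high and 30.2 CPM in reporter-low cells, a ratio of 2.75 (1.64 to 4.81), and Bmp5 275 and 460 CPM, a ratio of 0.597 (0.498 to 0.715). The Acta2-high cells described above made up 19.6% of those reporter-high and 4.17% of those reporter-low cells. Within the Acta2-low cells alone the ratio of Bmp3 was 1.70 (0.826 to 3.62) and that of Bmp5 0.737 (0.613 to 0.884). In 109 pairs of the Notum cluster Bmp2 had a ratio of 3.19 (1.58 to 6.95) and Bmp7 of 1.57 (1.20 to 2.05); cells of its Notum-high part were 52.3% of the reporter-high and 35.8% of the reporter-low cells, and within that part the ratios were 2.39 (1.07 to 6.05) and 1.45 (1.01 to 2.11).

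The other genes of the pathway, 59 in 6 lists, placed the members among their partners. These lists were also chosen with earlier results of these data known. Of 12 measured other antagonists and modulators, 6 had an adventitial-like over alveolar-like ratio of 2 or more (Chrd, Fstl1, Vwc2, Smoc1, Smoc2 and Kcp) and 2 one of 0.5 or less (Bmper and Crim1), with a median ratio of 2.33, beside 10.1% and 9.82% of all genes. Smoc1, a matrix protein that can hold back BMP signalling, had 25.9 CPM in adventitial-like and 0.467 CPM in alveolar-like fibroblasts. Bmper, a binding protein that can both block and help BMPs, went the other way, with 2.39 CPM in adventitial-like and 58.5 CPM in alveolar-like fibroblasts. Gdf10, a relative of Bmp3 within the family, had 228 CPM in adventitial-like and 50.7 CPM in alveolar-like fibroblasts, the reverse of Bmp3. Of 15 measured antagonists and modulators 14 were at least 2-fold higher in mesenchyme than in epithelium, as Fst and Chrdl1 were, beside 25.6% of all genes.

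Of 11 measured receptors and co-receptors, 1 (the co-receptor Eng) had an adventitial-like over alveolar-like ratio of 2 or more and 0 one of 0.5 or less, beside 10.1% and 9.82% of all genes. The type I receptor Bmpr1a had 92.6 CPM in adventitial-like and 83.6 CPM in alveolar-like fibroblasts, and the type II receptor Bmpr2 97.9 and 90.8 CPM. Of 8 target genes, 2 were at least 2-fold higher (Id2 and Msx1) and 1 at 0.5-fold or less (Smad7), beside 10.1% and 9.82% of all genes; Id1 had 46.8 CPM in adventitial-like and 72.1 CPM in alveolar-like fibroblasts and Id3 1528 and 2494 CPM. Mesothelial-like cells, where Chrdl1 was highest, also had the highest level of Chrd (48.6 CPM), Twsg1 (424 CPM), Crim1 (558 CPM), Bmpr1a (196 CPM) and the target gene Id1 (785 CPM) of the named classes and the Notum cluster. Smooth muscle-like cells were low in Bmp4 and Bmp5. They had 5 of 8 measured targets at least 2-fold higher than the other mesenchymal cells, beside 9.8% of all genes. These targets were Id1, Id2, Id4, Smad6 and Atoh8. Smooth muscle-like cells also had the highest level of Sost (285 CPM), a gene from the list of other antagonists and modulators.

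For each member the genes with the most similar pattern were found by Pearson correlation of log2(CPM + 1) over 21 clusters of at least 50 cells, as a description. For Bmp3 they were led by Gpc1 (0.867) and included the alveolar marker Npnt (0.811), and for Bmp5 by Adamts8 (0.844) and Thbs1 (0.842). Fst was followed by Gxylt2 and Pcdh18 (0.910 each), and Chrdl1 by C1s1 (0.905), C4b (0.892) and Gpc3 (0.888). Grem1 was followed by Sbspon (0.931) and Agt (0.885), Bmp7 by Faim2 (0.823), Bmp6 by Podxl (0.838) and Hbb-bs (0.836), Bmp4 by Itfg2 (0.835) and Bmp2 by Camk2n1 (0.815).

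The authors' deposited table gives mean counts for 17 clusters of their own, and its highest cluster for each member can be set beside its markers. In the authors' deposited table Bmp3, Bmp4 and Bmp5 were highest in cluster 1, with mean counts of 2.17, 2.12 and 1.47, which was also the highest in Npnt, Inmt and Slc7a10. Fst was highest in cluster 2 (0.826) and then cluster 3 (0.712) of the authors' deposited table, the clusters with the most Pi16, and its mean count in cluster 1 was 0.000975. The authors' deposited table places Bmp7 in clusters 7 and 11 (0.393 and 0.366), which hold the most Notum in reverse order, and Chrdl1 in cluster 15 (0.648) with Msln, the mesothelial marker. Grem1 (0.0636) and Bmp6 (0.126) were both highest in cluster 6 of the authors' deposited table, which was the highest in Hhip, in Acta2 and in Pecam1 alike. That cluster had 1.17 of Bmp5, below cluster 1, whereas myofibroblast-like cells stood above alveolar-like fibroblasts here. Bmp2 was highest in cluster 4 (0.184), where Sftpc was second to cluster 5, and had 0.135 in cluster 6. Its highest class here was instead the myofibroblast-like one.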

How the data were processed

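Single-cell RNA-seq libraries (10x Genomics 3′ chemistry, named v3 in the labels' protocols and v3.1 in the series text) were counted by the authors with Cell Ranger 3.0.0 on build mm10, per the submitters' processing notes and the file headers; the deposited matrix holds raw UMI counts. The authors' deposited table of 17 clusters gives a mean count signal per cluster, log2 fold changes and adjusted p-values, and its clustering method is not given in the sources used here. Gene coordinates come from GENCODE M21 (mm10) and promoters from RefSeq.

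Barcodes needed 500 or more genes and a mitochondrial share of UMIs of 10% or less; 9391 passed, 1296 had too few genes and 1545 exceeded the mitochondrial limit. Scrublet, at an assumed doublet rate of 0.08, marked 458 doublets (4.88%), which were left out. All barcodes share 1 suffix, so shared barcodes between samples could not be counted. Counts were scaled to 10000 per cell; 2000 variable genes (without the members and pathway genes), 30 principal components, 15 neighbours and Leiden resolution 1 gave 23 clusters, named from 18 marker lists where at least 3 markers were each in at least 25% of cells. Extra lists that kept cardiac and proliferating clusters unnamed, and a margin of 0.1 in score below which the best 2 lists were called a tie, were set after the data were seen; 4 clusters (872 cells) stayed unnamed. Levels are summed UMIs as CPM with exact Poisson intervals, Clopper-Pearson intervals belong to shares and exact conditional binomial ones to ratios, all at 95%. Members with at least 30 UMIs over both classes were counted at 2-fold or 0.5-fold; a class at 0 was set to a floor of 3 UMIs over the class. The code was tested on simulated data. All 9 members are described; from each pathway list the text could name the 3 highest and 3 lowest genes with at least 100 UMIs, the genes it counts, any gene in its highest class, and 5 genes of like pattern for each member among genes with at least 200 UMIs. The members and lists were chosen with earlier results of these data known. 1 gene of the pathway lists is not reported here. With 1 pooled matrix no test was possible. Alternatives tried were doublets kept, a looser filter (200 genes, 20% mitochondrial UMIs), resolutions 0.5 and 2, clusters and values from separate random parts of the UMIs, other means, a minimum of 100 UMIs, any Egfp UMI against none, and 4 added later. Python 3.11.15, scanpy 1.11.5, leidenalg 0.10.2, scikit-learn 1.9.0, numpy 2.4.6, scipy 1.17.1 and matplotlib 3.10.9 were used.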

Additional observations from a re-analysis of the deposited data

Results flagged for a closer look

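Bmp6 stood at 162 CPM in the 66 endothelial-like cells, a class that no comparison in the report uses and that the sort against CD31 was meant to remove; the level was 10.3 CPM in mesothelial-like and 1.58 CPM in adventitial-like cells.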

How the results depend on the processing

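Of 29 member ratios past 2-fold, 27 stayed on the same side of 1 and 24 past 2-fold in every alternative; of 744 alternative values of single members, 642 moved by less than the criterion, 98 moved by more and 4 reversed. The 4 members at 0.5-fold or less for adventitial-like over alveolar-like became 2 with the looser cell filter, at resolution 0.5 and with the tied cluster counted as adventitial-like (chosen after seeing the data). Under those settings the Bmp7 ratio of 0.253 was 4.23, 3.02 and 3.07; with ties named by the best list, also chosen after seeing the data, the Bmp2 ratio of 3.36 was 0.958. In mesothelial-like cells the 2 higher members became 1 with clusters and values from separate random parts of the UMIs and with a minimum of 100 UMIs, and the 2 lower members became 4 with those separate parts. For AT1-like over AT2-like cells the 1 lower member became 2 with doublets kept, and the 1 higher member became 0 with those separate parts and with a minimum of 100 UMIs. The causes were not tested, except that the minimum leaves fewer members to count. The Fst ratio of adventitial-like over alveolar-like fibroblasts ranged from 39.9 to 91.4. No value was had for myofibroblast-like cells with doublets kept or the looser filter, or for smooth muscle-like cells at resolution 0.5. Depth limits Grem1 (26 UMIs) and Bmp6 (143 UMIs). No paired analysis was possible because the matrix pools the samples.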
